A study of Homo sapiens with 6 samples.

Results

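The genes described are 10 secreted chemokines and inflammatory cytokines, CXCL1, CXCL2, CXCL3, CXCL8, CCL2, CSF2, IL6, IL1A, IL1B and LIF, out of 11387 genes listed for the human ocular melanoma line 92.1. They were taken by name from the chemokine and cytokine genes with at least 1 listed transcript, with their behaviour in these libraries already known. They are not all such genes. Among others looked up, 5 chemokine and 17 cytokine genes were also listed, and these are described apart from the members. RNA sequencing compared 3 libraries of 92.1 cells with wild-type genotype (NC) and 3 libraries of a 92.1 derivative in which ALKBH3 was knocked down (shALKBH3). All cells were grown in the same serum-containing medium. The labels name no hairpin sequence, do not state whether NC cells carry a control hairpin, and are silent on whether each replicate was its own culture. The p-values therefore describe the spread between these libraries, and that spread may be technical.

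Chemokines are small secreted proteins that attract leukocytes through G protein-coupled receptors. CXCL1, CXCL2, CXCL3 and CXCL8 bind CXCR2 and draw neutrophils, and CCL2 binds CCR2 and draws monocytes. In many tumour cells their genes are switched on by NF-kB, AP-1 and C/EBP factors downstream of interleukin-1 or MAP kinase signalling, and their short-lived mRNAs are degraded through AU-rich elements in the 3′ end. CSF2 encodes the growth factor GM-CSF. IL6 and LIF signal through the shared receptor subunit gp130, and IL1A and IL1B are the agonists of the interleukin-1 receptor. ALKBH3 is an AlkB-family enzyme that demethylates damaged DNA bases and 1-methyladenosine in RNA.

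The promoters of the members are shown first, as sequence only. Whether their motifs bear on the levels in shALKBH3 was not tested. RefSeq promoter entries (GRCh38.p14) were matched by symbol for 8 of the 10 members, with 9 start sites in all. CCL2 and LIF were not matched. The windows below cover the 150 bases before the start of CXCL8 (chr4:73740419-73740568, plus strand), CXCL1 (chr4:73869243-73869392, plus strand), CXCL2 (chr4:74099196-74099345, minus strand), CXCL3 (chr4:74038690-74038839, minus strand), IL6 (chr7:22727050-22727199, plus strand) and CSF2 (chr5:132073639-132073788, plus strand), written 5′ to 3′ on the gene's strand. Capitals mark matches to the NF-kB form GGNNTTTCC, the AP-1 form TGANTCA and the TATA box form TATAAA.
CXCL8: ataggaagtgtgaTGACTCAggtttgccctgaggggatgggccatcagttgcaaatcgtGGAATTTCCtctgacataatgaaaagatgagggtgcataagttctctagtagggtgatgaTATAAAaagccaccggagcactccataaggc
CXCL1: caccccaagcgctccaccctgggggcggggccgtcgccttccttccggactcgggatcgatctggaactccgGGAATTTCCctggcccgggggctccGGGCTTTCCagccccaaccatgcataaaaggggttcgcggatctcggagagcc
CXCL2: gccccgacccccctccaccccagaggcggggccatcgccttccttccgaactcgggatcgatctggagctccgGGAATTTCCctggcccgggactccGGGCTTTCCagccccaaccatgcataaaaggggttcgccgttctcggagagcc
CXCL3: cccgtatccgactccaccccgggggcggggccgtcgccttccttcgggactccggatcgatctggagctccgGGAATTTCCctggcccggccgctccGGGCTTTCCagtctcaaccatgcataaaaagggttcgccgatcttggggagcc
IL6: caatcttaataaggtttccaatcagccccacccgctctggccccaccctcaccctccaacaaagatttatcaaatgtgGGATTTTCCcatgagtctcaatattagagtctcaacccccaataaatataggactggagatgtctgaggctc
CSF2: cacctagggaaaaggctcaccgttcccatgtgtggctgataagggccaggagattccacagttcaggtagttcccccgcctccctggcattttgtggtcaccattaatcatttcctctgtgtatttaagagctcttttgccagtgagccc

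The full 250 bases before each start were searched on both strands for these forms and for an interferon response form (GAAA, any 2 bases, GAAA), and no matches of different forms overlapped. GGNNTTTCC was found 2 times in each of CXCL1, CXCL2 and CXCL3, as GGAATTTCC and GGGCTTTCC, and 1 time in CXCL8 (GGAATTTCC) and in IL6 (GGATTTTCC). These are 5 of the 8 matched members, and 5.48% of all 35116 promoter entries held the form. CXCL8 also held TGACTCA and, 31 to 26 bases before its start, TATAAA. IL1A held the AP-1 form before both of its starts, but these windows overlap and their TGACTCA is the same site. TATAAA lay 239 to 234 bases before start 2 of IL1A. The AP-1 form was present in 6.57% of all entries and the TATA form in 10.7%. CSF2 and IL1B held none of the 4 forms in this window, and the interferon form, present in 3.02% of all entries, was found in no member. The windows of CXCL1, CXCL2 and CXCL3 were near copies of each other, with 86.7% to 89.3% of the 150 bases identical, against 47.3% to 49.3% in alignments with CXCL8. A match is a description of letters and not a measured binding site. Sites that depart from these forms are missed, so a promoter without a match may still hold a site.

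**Figure D1:**
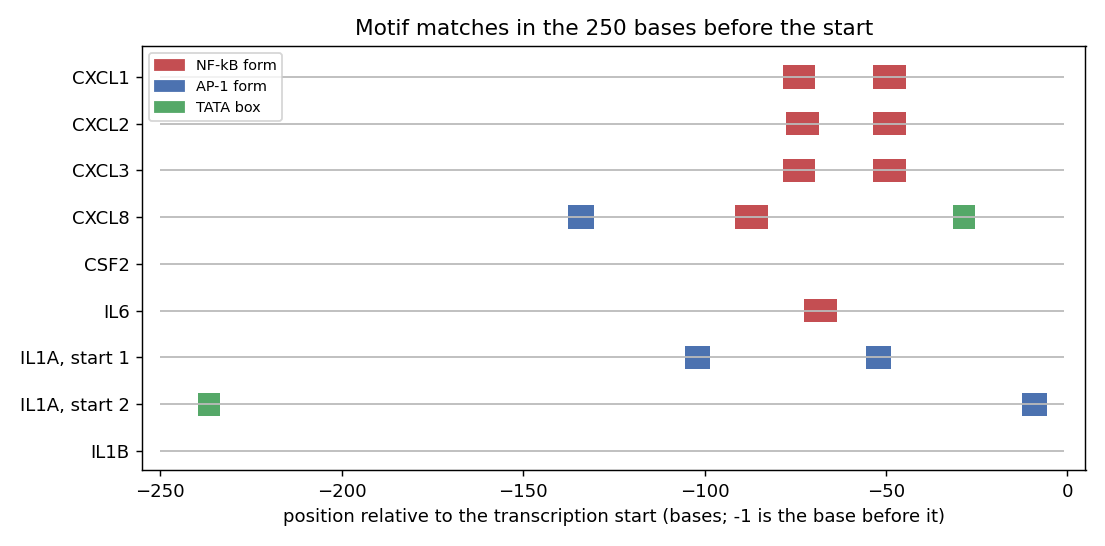
Positions of motif matches in the 250 bases before each RefSeq start of 8 members, on a horizontal axis of bases relative to the start. Each grey line is a promoter and each coloured bar a match. The NF-kB form lies between 91 and 45 bases before the start in CXCL1, CXCL2, CXCL3, CXCL8 and IL6, and CSF2 and IL1B have no match.

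Values are FPKM, which scale fragment numbers by transcript length and by library size, so levels of different genes can be compared. A gene's level is the sum of its listed transcripts. Listed sums were 340522 to 360889 FPKM in NC and 326408 to 333506 in shALKBH3, and sequencing depth is unknown. ALKBH3 itself was at 10.5, 10.6 and 9.19 FPKM in NC and at 3.29, 3.60 and 4.24 in shALKBH3 (log2 change -1.24, SE 0.118, limma adjusted p = 0.0079). The adjusted p was 0.0513 when NC replicate 1 was left out and 0.0627 with only the most abundant transcript of each gene (log2 -1.24). Of 12 melanocyte markers only MITF and GPR143 were listed, with summed levels of 17.7 to 21.2 FPKM in NC and 21.8 to 25.7 in shALKBH3, and PMEL, MLANA, TYR, DCT and SOX10 were among the 10 not listed. Every listed transcript had a mean of at least 0.5 FPKM in the higher group. A transcript outside the tables may therefore have been below that level in both groups, but the rule of listing is not stated. Of 14 leukocyte and macrophage markers 2 were listed, CD68, a lysosomal protein that is not restricted to macrophages, and CSF1R at 1.08 FPKM or less. CD68 rose from 14.7, 15.4 and 18.9 FPKM in NC to 33.8, 37.4 and 37.1 in shALKBH3 (log2 1.10, limma adjusted p = 0.0104), which set the summed level of the 2 at 15.8 to 19.7 FPKM in NC and 34.4 to 38.2 in shALKBH3, and its part in the results below was not tested. PTPRC, CD14 and LYZ were not listed, nor was any of 7 endothelial markers. Of 8 epithelial markers 3 were listed. The keratins KRT8 and KRT18 were high in both groups (means of 242 and 221 FPKM in NC). KRT19 averaged only 0.703 FPKM in NC and 0.324 in shALKBH3, and EPCAM, CDH1, ESRP1, KRT5 and KRT14 were not listed. The identity of the line, with most melanocyte markers not listed, was not tested.

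Transcripts of 3 of the 4 neutrophil-attracting chemokines, CXCL8, CXCL2 and CXCL3, and of the growth factor CSF2 were lower in the knockdown libraries, with only CXCL8 past the threshold whichever library was left out. CXCL1 was too low to test, and differences in interleukin-1 and LIF transcripts stayed within the spread of the libraries. Of the 10 members 9 averaged 1 FPKM or more across the 6 libraries and entered the test, and CXCL1 did not. CXCL2, CXCL3, CXCL8 and CSF2 fell at a limma adjusted p under 0.05, which is 4 of 9 lower and 0 higher, against 0.477% of all 10475 tested genes lower and 1.28% higher. At an unadjusted p under 0.05, 6 of the 9 members were lower and 0 higher, against 8.15% of all tested genes lower and 8.98% higher. These shares are also the background for the unadjusted counts of the gene lists. In 6 of the 9 all shALKBH3 libraries lay below all NC libraries, a pattern seen in 12.0% of all tested genes, with 12.9% separated in the other direction. The median log2 difference of the 9 was -0.81, against -0.01 for all tested genes. In RNA from whole cultures, fewer cells making a transcript and less of it per cell cannot be told apart.

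**Figure D2:**
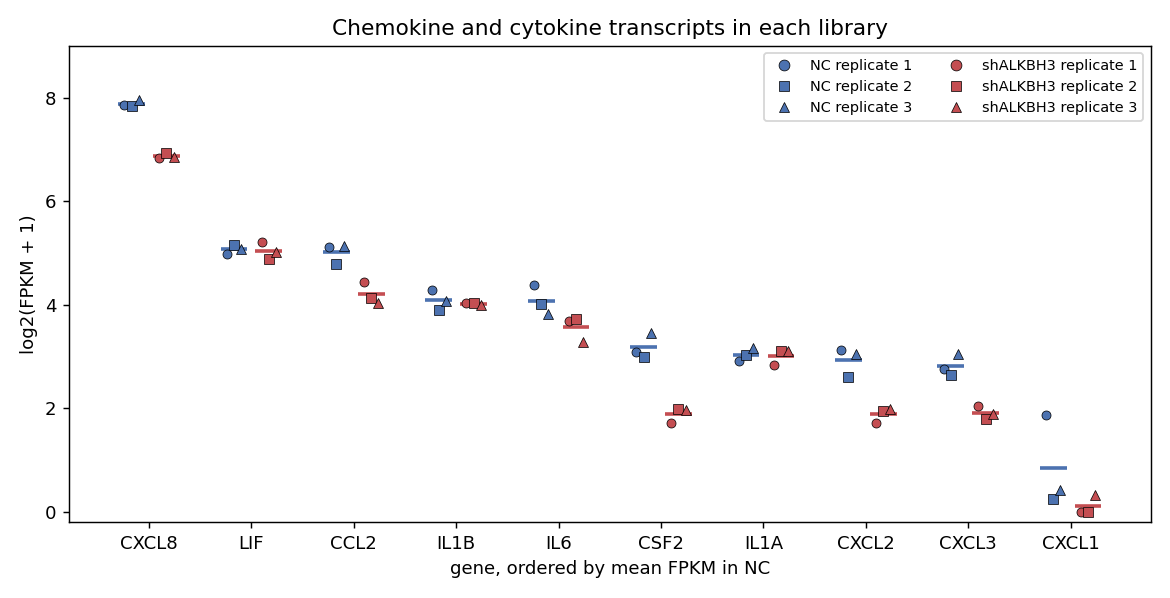
Levels of the 10 members in each library as log2(FPKM + 1), ordered by mean FPKM in NC. Points are single libraries, with the replicate number given by the marker shape, and bars are group means of the log2 values. CXCL8, CCL2, IL6, CSF2, CXCL2 and CXCL3 show shALKBH3 libraries below all NC libraries, and LIF, IL1B, IL1A and CXCL1 overlap.

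The levels of the members differed widely. CXCL8 was the 200th most abundant of 11387 genes in NC, at 236 ± 10.6 FPKM (SD, 3 libraries), and the 400th in shALKBH3. LIF (32.6 ± 2.22 FPKM in NC) and CCL2 (31.5 ± 4.14) came next and overlapped between NC libraries, as did IL1B (16.1 ± 2.36) and IL6 (16.0 ± 3.38). CSF2 (8.15 ± 1.59), IL1A (7.23 ± 0.673), CXCL2 (6.69 ± 1.41) and CXCL3 (6.09 ± 1.02) followed, and neighbours among these 4 overlapped between NC libraries. CXCL1 was lowest at 1.06 FPKM, with all NC libraries below those of CXCL3. Together the 10 members made 364, 344 and 376 FPKM in NC and 211, 209 and 202 in shALKBH3. CXCL8 was 65.3% ± 1.53 of that sum in NC and 56.1% ± 2.14 in shALKBH3 (± SD of 3 libraries). Without CXCL8 the sum was 125 ± 9.01 FPKM in NC and 91.1 ± 5.84 in shALKBH3.

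CXCL8, the neutrophil attractant interleukin-8, was at 231, 229 and 248 FPKM in NC replicates 1, 2 and 3 and at 113, 121 and 115 in shALKBH3 replicates 1, 2 and 3. The 3 knockdown libraries lay close together and far below every control. The mean FPKM fell by 50.7%. The change of log2(FPKM + 1) was -1.01 (95% interval -1.18 to -0.85, SE 0.0667, limma adjusted p = 0.0030). The adjusted p stayed between 0.0135 and 0.0333 when each library was left out in turn.

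CXCL8 RNA was listed as a pair of protein-coding transcripts of different length. The longer one, of 1705 bases (ENST00000307407), averaged 214 ± 10.6 FPKM in NC against 108 ± 4.08 in shALKBH3, so it fell by 49.4%. The shorter one, of 700 bases (ENST00000401931), was at 22.2, 21.5 and 21.6 FPKM in NC and 8.27, 7.58 and 7.81 in shALKBH3, so it fell by 63.8%. Both forms were therefore lower, and the shorter form made up 9.57%, 9.41% and 8.72% of the gene in NC and 7.30%, 6.29% and 6.78% in shALKBH3. Every knockdown share was below every control share (exact two-sided permutation test p = 0.1, the smallest that 3 against 3 libraries allow). The division of fragments between transcripts of one gene is a model estimate.

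CXCL2, one of the GRO chemokines, was at 7.73, 5.09 and 7.25 FPKM in NC replicates 1, 2 and 3 and at 2.29, 2.84 and 2.96 in shALKBH3 replicates 1, 2 and 3. All knockdown values were lower than the lowest control, NC replicate 2. The log2 change was -1.04 (95% interval -1.46 to -0.63, SE 0.171, limma adjusted p = 0.0474), and the mean fell by 59.7%. Leaving out NC replicates 1 or 3 gave adjusted p-values of 0.157 and 0.155, and leaving out shALKBH3 replicates 1, 2 or 3 gave 0.126, 0.158 and 0.147. Of these fits the call held only without NC replicate 2, and it was lost with the most abundant transcript of each gene (0.0913). CXCL2 has 1 listed transcript, so its own values and log2 change were the same there, and only the fit across all genes differed.

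CXCL3, another GRO chemokine, was at 5.78, 5.26 and 7.23 FPKM in NC and at 3.14, 2.49 and 2.71 in shALKBH3. The groups were again apart. The log2 change was -0.90 (95% interval -1.25 to -0.55, SE 0.143, limma adjusted p = 0.0439), and the mean fell by 54.3%. The adjusted p rose to between 0.0687 (without NC replicate 2) and 0.168 (without shALKBH3 replicate 3) when any single library was left out (0.141, 0.114, 0.0903 and 0.161 without NC replicates 1 and 3 and shALKBH3 replicates 1 and 2). With the most abundant transcript of each gene it was 0.0825, although CXCL3 also has 1 listed transcript and its log2 change was the same.

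CXCL1, CXCL2 and CXCL3 are recent duplicates, which limits how surely their reads can be told apart. Their listed transcripts were 91.0% identical between CXCL1 and CXCL2 over 1070 aligned bases, 91.4% between CXCL1 and CXCL3 over 372 bases and 87.7% between CXCL2 and CXCL3 over 559 bases. In exact stretches of 50 bases, 9.24% of the CXCL2 transcript, 5.73% of CXCL1 and 5.26% of CXCL3 also occurred in another of the 3 genes, and no stretch of a CXCL8, CCL2, CSF2, IL6, IL1A, IL1B or LIF transcript occurred in any other GENCODE gene. The values of the 3 duplicates are therefore uncertain to the extent that the authors' tool shared fragments among them.

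CXCL1 was at 2.65, 0.184 and 0.336 FPKM in NC replicates 1, 2 and 3. It was listed at 0 in shALKBH3 replicates 1 and 2 and at 0.246 FPKM in replicate 3, so the groups overlapped. Its presence in the tables may depend on NC replicate 1, since without that library no group mean reaches 0.5 FPKM. CXCL1 was under the test's level filter. In a fit without that filter the log2 difference was -0.74 (SE 0.436, limma adjusted p = 0.44).

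The same library stood apart in other low genes. Of 34 further chemokine genes 5 were listed, CXCL5, CXCL6, CXCL10, CXCL11 and CXCL16, all below the test's level filter. The interferon-induced chemokine gene CXCL10 was at 3.09 FPKM in NC replicate 1 and listed at 0 in the other 5 libraries. CXCL11, its close relative, was at 2.61 FPKM there, listed at 0 in 4 libraries and at 0.132 FPKM in shALKBH3 replicate 3. CXCL5 was at 1.77 FPKM in NC replicate 1 and at most 0.125 elsewhere, and CXCL6 at 1.32 and at most 0.267. All shALKBH3 libraries of CXCL6 (0.0922 FPKM or less) were below all its NC libraries (0.229 FPKM or more). As with CXCL1, no group mean of CXCL5, CXCL6, CXCL10 or CXCL11 reaches 0.5 FPKM without NC replicate 1. Their presence in the tables, and with it the direction of their differences, may therefore depend on that library. Only CXCL16, a membrane-bound chemokine, went the other way, with 0.249 to 0.503 FPKM in NC and 0.877 or above in all 3 shALKBH3 libraries. Its mean reached 0.5 FPKM only in shALKBH3 (0.957, against 0.393 in NC). The direction of its difference may therefore also depend on how genes came to be listed.

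Among fibroblast markers, 5 of 9 were listed, with summed levels of 55.3 to 74.9 FPKM in NC and 62.2 to 64.2 in shALKBH3. COL1A2 was at 7.23 FPKM in NC replicate 1 and at most 0.783 elsewhere, and COL3A1 at 5.46 and at most 0.966, while DCN, LUM, PDGFRA and THY1 were not listed. COL1A1 (24.0, 20.9 and 19.0 FPKM in NC) and FAP (35.0, 35.4 and 31.2) were not set apart in that library. In NC replicate 1, 20 genes reached at least 1 FPKM and at least 5 times the highest other library, against 1 to 7 genes in each of the other libraries. Whether this bears on the chemokine values of NC replicate 1 was not tested, and with that library left out the log2 changes of CXCL8, CSF2, CXCL2, CXCL3 and CCL2 were -1.03, -1.34, -0.94, -0.93 and -0.76.

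**Figure D3:**
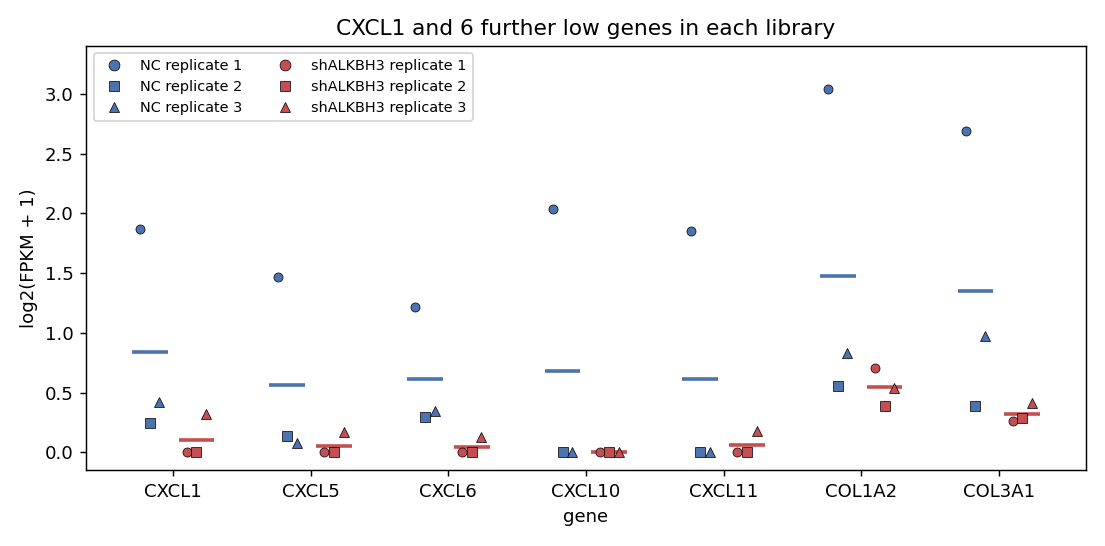
CXCL1, CXCL5, CXCL6, CXCL10, CXCL11, COL1A2 and COL3A1 in each library as log2(FPKM + 1), with points for libraries and bars for group means. NC replicate 1 is the highest library in all 7 genes, and CXCL10 is listed at 0 in the other 5.

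CCL2, the monocyte attractant MCP-1, was at 33.7, 26.7 and 34.0 FPKM in NC and at 20.7, 16.6 and 15.5 in shALKBH3. Every knockdown library was below every control, but the difference did not pass the test. The log2 difference was -0.81 (95% interval -1.17 to -0.45, SE 0.147, limma adjusted p = 0.065), and the adjusted p lay between 0.07 and 0.217 when each library was left out. It passed in 1 of 17 alternatives, a fit with library weights (0.0189), in which NC replicate 1 had one of the 2 highest weights (2.26). Of its 2 listed transcripts the main one held 97.9% of the NC level and 97.2% of the shALKBH3 level.

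CSF2 showed the largest change of the 9 tested members. It was at 7.53, 6.97 and 9.97 FPKM in NC and at 2.27, 2.95 and 2.93 in shALKBH3. The lowest control was more than 2 times the highest knockdown value. The mean FPKM fell by 66.7%. The change of log2(FPKM + 1), which is smaller at low levels, was -1.29 (95% interval -1.68 to -0.90, SE 0.160, limma adjusted p = 0.0233). Leaving out NC replicate 1 raised the adjusted p to 0.0862, and leaving out shALKBH3 replicates 1, 2 or 3 raised it to 0.0688, 0.0786 and 0.0966. The call held without NC replicates 2 or 3 (0.0426 and 0.0479).

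The gp130 cytokines IL6 and LIF differed from each other. IL6 was at 19.7, 15.3 and 13.1 FPKM in NC and at 12.0, 12.2 and 8.74 in shALKBH3. The groups did not overlap, but NC replicate 3 was close to shALKBH3 replicates 1 and 2. The log2 difference was -0.51 (95% interval -0.96 to -0.05, SE 0.188, limma adjusted p = 0.26) and did not pass. With library weights it was -0.77 (adjusted p = 0.0736). IL6 had 4 listed transcripts, of which the main one held 85.9% of the NC level. IL6 overlaps the listed gene STEAP1B on the opposite strand, and whether the authors' counting used strand is not stated.

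LIF, which acts as an inflammatory cytokine, was at 30.4, 34.9 and 32.6 FPKM in NC and at 35.9, 28.4 and 31.6 in shALKBH3. Both the highest and the lowest of the 6 values were knockdown libraries, so the groups overlapped. The log2 difference was -0.03 (95% interval -0.30 to 0.23, SE 0.109, limma adjusted p = 0.89).

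The interleukin-1 genes showed no difference past the test. IL1A, an alarmin active in its precursor form, was at 6.57, 7.19 and 7.92 FPKM in NC and at 6.19, 7.62 and 7.62 in shALKBH3. The log2 difference was -0.02 (95% interval -0.31 to 0.28, SE 0.121, limma adjusted p = 0.96). IL1B, which needs cleavage by caspase-1, was at 18.6, 13.9 and 15.9 FPKM in NC and at 15.4, 15.4 and 14.9 in shALKBH3. All 3 knockdown values lay inside the control range, and the log2 difference was -0.07 (95% interval -0.35 to 0.22, SE 0.117, limma adjusted p = 0.79). For LIF, IL1A and IL1B these unadjusted intervals do not reach the log2 change of -1.01 measured for CXCL8. Their small log2 differences were positive when libraries were scaled to equal sums (0.06, 0.07 and 0.02).

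**Figure D4:**
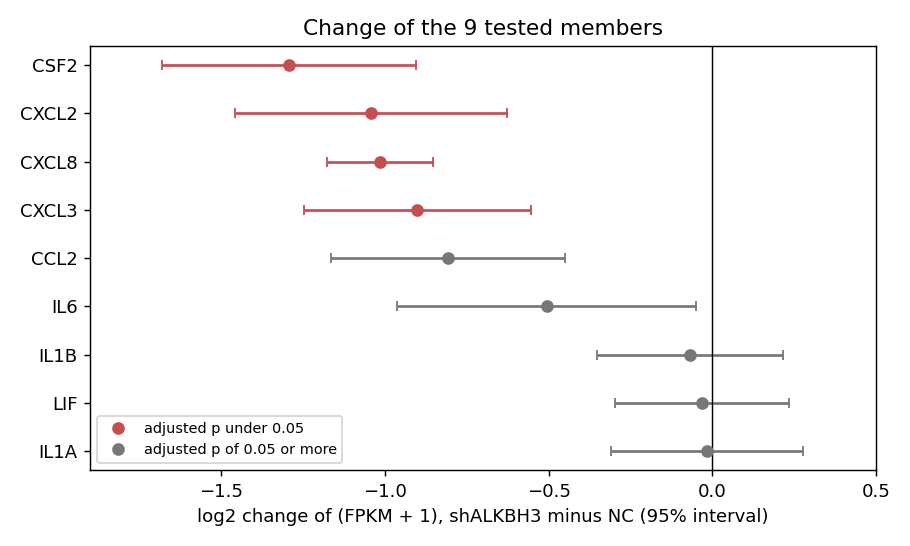
Log2 change of FPKM + 1 from NC to shALKBH3 for the 9 tested members, with 95% intervals from the fit across all genes. CSF2, CXCL2, CXCL8 and CXCL3 passed an adjusted p of 0.05, CCL2 and IL6 did not, and the intervals of IL1B, LIF and IL1A span 0.

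Ratios within a library do not depend on how libraries are scaled. CXCL8 was 7.61, 6.56 and 7.61 times LIF in NC and 3.16, 4.25 and 3.64 times LIF in shALKBH3. It was 14.8 ± 2.11 times IL1B in NC and 7.64 ± 0.264 times in shALKBH3, and 32.8 ± 2.13 times IL1A against 16.4 ± 1.68 (± SD of 3 libraries). These 3 ratios were lower in all knockdown libraries. Relative to CSF2 the ratio was higher in all knockdown libraries, at 29.5 ± 4.10 in NC and 43.3 ± 5.73 in shALKBH3. The ratios of CXCL8 to CXCL2, CXCL3, CCL2 and IL6 overlapped between the groups. Across the 8 ratios the exact two-sided permutation p was 0.1 for the 4 that separated, the smallest that 3 against 3 allow, and 0.2 after Benjamini-Hochberg adjustment over the 8, so none could pass.

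Receptors for these ligands were mostly outside the tables. Of 15 receptor and antagonist genes 4 were listed and tested, IL1R1, IL1RAP, IL1RN and IL6ST, and CXCR1, CXCR2, CCR2, CSF2RA, CSF2RB, IL6R and LIFR were not listed. None passed in limma. Before adjustment 2 of the 4 had p under 0.05, both higher (8.98% of all tested genes were), and the median log2 difference was 0.39. IL1RN, the interleukin-1 receptor antagonist, was at 1.53, 1.82 and 1.46 FPKM in NC and 3.32, 2.81 and 2.57 in shALKBH3 (log2 difference 0.58, adjusted p = 0.10). IL1R1, the signalling receptor, averaged 1.86 ± 0.401 FPKM in NC against 2.99 ± 0.265 in shALKBH3 (± SD of 3 libraries, log2 difference 0.49, adjusted p = 0.18). Both were higher in all 3 knockdown libraries as summed over transcripts, but with only the most abundant transcript the log2 difference of IL1R1 turned to -0.08 (adjusted p = 0.927).

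Of 14 tested genes for interleukin-1 processing and release, 0 passed in limma in either direction and 3 were higher at an unadjusted p under 0.05, with a median log2 difference of 0.05. CASP1, the protease that matures interleukin-1 beta, averaged 11.0 ± 1.32 FPKM in NC against 16.8 ± 1.33 in shALKBH3 (log2 difference 0.57, adjusted p = 0.086, and 0.0236 with library weights). ADAM17, a sheddase of cytokines and their receptors, was at 20.3 ± 1.30 and 24.9 ± 0.860 FPKM (± SD of 3 libraries, log2 difference 0.28, or 0.19 with the length and GC correction, adjusted p = 0.18).

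Among 17 tested genes for other cytokines 2 rose and 0 fell, and the median log2 difference was 0.01. TNFSF10, which encodes the death ligand TRAIL and is an interferon-induced gene, was at 1.88, 1.91 and 1.45 FPKM in NC and 7.13, 8.65 and 8.04 in shALKBH3. Its log2 rise was 1.70 (SE 0.125, limma adjusted p = 0.0039), opposite in direction to the chemokines. IFNE, an epithelial type I interferon, rose from 3.17 ± 0.171 to 5.99 ± 0.735 FPKM (± SD of 3 libraries, log2 0.74, limma adjusted p = 0.044). Its adjusted p lay between 0.0722 and 0.171 when any single library was left out. With the most abundant transcript of each gene it was 0.0804, although IFNE has 1 listed transcript and its log2 change was the same. At an unadjusted p under 0.05, 1 further cytokine was lower, IL11, a gp130 cytokine named here after its values were seen (9.14, 8.48 and 11.5 FPKM in NC and 7.15, 4.76 and 6.02 in shALKBH3, adjusted p = 0.16).

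Genes for NF-kB subunits and their regulators did not pass singly. Of 27 tested, 0 passed in limma in either direction. Before adjustment 4 were higher and 2 lower with p under 0.05, and the median log2 difference was -0.03. NFKBIB, an inhibitor that retains NF-kB in the cytoplasm, was at 5.13, 5.07 and 5.29 FPKM in NC and 3.07, 3.36 and 2.79 in shALKBH3 (log2 difference -0.60, adjusted p = 0.054). With the length and GC correction its log2 difference was -0.33 (limma adjusted p = 0.356), and it passed with library weights (0.0211) and without the variance trend (0.0466). IRAK1, a kinase of the interleukin-1 receptor, was at 9.15, 17.6 and 9.97 FPKM in NC and 26.4, 21.0 and 24.7 in shALKBH3 (log2 difference 0.97, adjusted p = 0.14). NC replicate 2 was closest to the knockdown values, and without it the difference passed (log2 1.24, limma adjusted p = 0.0277), as it did with library weights (0.0442), while with only the most abundant transcript it was 0.16 (adjusted p = 0.92). Protein activity of these factors was not measured.

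Among 15 tested AP-1 and C/EBP genes 1 rose and 0 fell. Before adjustment 4 were lower with p under 0.05 in limma, and the median log2 difference was -0.14. The gene that rose was BATF2, an interferon-induced AP-1 family member, from 2.33 ± 0.288 to 7.09 ± 0.247 FPKM (± SD of 3 libraries, log2 1.29, adjusted p = 0.0051). CEBPB, a C/EBP activator of cytokine genes, was at 43.7, 43.3 and 56.2 FPKM in NC and 36.4, 29.1 and 31.6 in shALKBH3 (log2 difference -0.54, adjusted p = 0.14). All its knockdown values were below the controls without passing, and the length and GC correction moved the log2 difference to -0.30.

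Of 26 tested genes for AU-rich element RNA-binding and decay factors, 0 passed in limma in either direction. Before adjustment 2 were higher and 4 lower with p under 0.05, and the median log2 difference was 0.08. HNRNPD, which encodes the AU-rich element protein AUF1, averaged 164 ± 3.77 FPKM in NC against 132 ± 6.03 in shALKBH3 (log2 difference -0.32, adjusted p = 0.088, and 0.0443 with library weights). With only the most abundant transcript its log2 difference was -0.56 (adjusted p = 0.267). ZFP36L1, a decay factor of the tristetraprolin family, was at 196 ± 16.5 and 156 ± 8.75 FPKM (± SD of 3 libraries, log2 difference -0.33, adjusted p = 0.15).

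**Figure D5:**
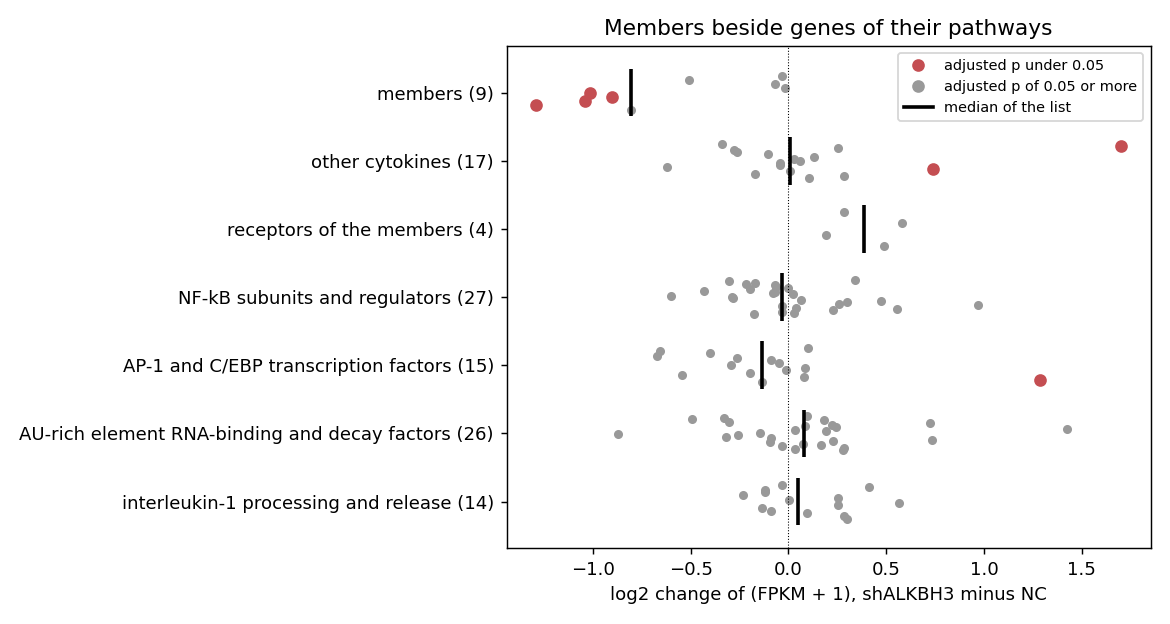
Log2 change of FPKM + 1 from NC to shALKBH3 for the tested genes of 7 lists, with the number tested in brackets. Red points passed an adjusted p of 0.05 and black bars are medians. The members have a median of -0.81 with 4 called lower, and the called genes of the other lists, TNFSF10, IFNE and BATF2, are higher.

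CXCL8, CXCL1, CXCL2 and CXCL3 lie together on chromosome 4. Of 20 other genes in and beside that cluster 8 were listed and 6 tested. CXCL5 and CXCL6 were listed but too low to test. Their means were lower in shALKBH3, but without NC replicate 1 no group mean of either reaches 0.5 FPKM. The groups of CXCL5 overlapped. BTC, which encodes the EGF-family ligand betacellulin, rose from 1.32, 1.21 and 0.953 FPKM in NC to 3.50, 4.00 and 3.67 in shALKBH3 (log2 1.13, SE 0.123, limma adjusted p = 0.014). Leaving out shALKBH3 replicates 1, 2 or 3 gave adjusted p-values of 0.0541, 0.0736 and 0.0835, and the most abundant transcript gave 0.0627. COX18, a mitochondrial assembly factor, averaged 2.02 ± 0.533 FPKM in NC against 3.21 ± 0.288 in shALKBH3 (± SD of 3 libraries, log2 difference 0.49, adjusted p = 0.21). Thus 1 tested neighbour rose and 0 fell in limma, beside 3 lower members in the cluster. Before adjustment 3 of the 6 neighbours were higher and 0 lower with p under 0.05, against 8.98% and 8.15% of all tested genes.

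The genes with profiles most like CXCL8 were found by the root mean square distance between log2(FPKM + 1) values centred over the 6 libraries. Nearest of the tested genes was INHBA, which encodes a subunit of activin A (distance 0.0782), at 23.8, 22.9 and 23.5 FPKM in NC and 11.9, 12.6 and 12.4 in shALKBH3. It was followed by the hair keratin gene KRT34 (0.106), the immediate early gene EGR1 (0.132), NOTCH2NLA (0.133) and LRR1 (0.136). NOTCH2NLA has near-identical relatives, so its value is uncertain. Among the members CXCL3 was the 6th nearest of all genes (0.139), CXCL2 the 9th (0.163), CSF2 the 21st (0.188) and CCL2 the 27th (0.194). IL6 came 464th (0.345), and IL1B, IL1A and LIF came 3513th, 4075th and 4202nd (0.488, 0.506 and 0.510). These distances follow from the group difference and describe these 6 libraries.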

How the data were processed

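RNA of 92.1 cells was sequenced after fragmentation, random priming and dUTP second-strand synthesis, per the labels' protocols. The authors deposited FPKM per transcript, per the file headers. The submitters' processing notes name hg19, HTSeq 0.6.0 and DESeq2 without roles. Neither the aligner, the annotation nor the FPKM tool is given in the sources used here. Values reach down to 1e-06 FPKM, so whole reads could not be recovered, depth is unknown and no counting interval is given.

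Transcript identifiers were stripped of suffix and version and matched to GENCODE release 29 (28796 of 28900), and FPKM were summed per gene. The 10475 genes averaging 1 FPKM or more were tested as log2(FPKM + 1) with limma 3.58.1 in R 4.3.3 (variance trend, two-sided, Benjamini-Hochberg over all genes tested, threshold 0.05). Fold changes on that scale understate low genes. The design file planned a protein comparison, for which no sequences were at hand. The test was checked on simulated data. Promoters were searched with Python 3.11.15, and transcripts aligned with Biopython 1.88.

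The members and lists were chosen with earlier results of these data known. Named were all members, ALKBH3, of each other list the genes past the threshold (at most 6) and, where none or 1 passed, the 2 with the smallest adjusted p, the 5 profiles nearest to CXCL8, and markers; CXCL5, CXCL6, CXCL10, CXCL11, CXCL16 and the collagens were singled out after their values were seen. Alternatives covered pseudocounts, level filters, scaling, transcript choice, library weights, variance trend, a replicate block, a length and GC correction added after seeing the data, and leaving out each library.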

Additional observations from a re-analysis of the deposited data

How the results depend on the processing

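Of the 9 tested members 4 were lower, and 4 were lower with a pseudocount of 0.1 or 0.5 FPKM, without the level filter, with equal library sums and with the length and GC correction. The number lower was 2 with a mean of at least 5 FPKM, where CXCL2 and CXCL3 were not tested, 2 with the most abundant transcript (CXCL8 and CSF2), and 1 to 3 when each library was left out in turn. It was 3 under quantile normalization and without the variance trend, where CXCL2 missed the threshold (adjusted p = 0.0604 and 0.055), and 5 with library weights, which added CCL2. No setting gave a higher member. Among the other gene lists 4 genes were higher and 0 lower. The number higher was 0 at a mean of at least 5 FPKM, where TNFSF10, IFNE, BATF2 and BTC were not tested. It was 2 with the most abundant transcript and 2 to 5 with a library left out. The number lower was 2 with library weights, 1 without the variance trend and 0 to 1 with a library left out. Over all genes tested 134 were higher and 50 lower. These counts were 80 and 25 with the most abundant transcript and 320 and 160 with library weights. They ranged from 39 to 87 higher and 9 to 22 lower with a library left out, and fewer samples were fitted there. The number lower was 24 with equal sums, against 151 higher, and 27 without the variance trend. Equal sums moved the median of all genes from -0.01 to 0.07 on the log2 scale. The cause of the other differences was not tested.

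Replicate numbers showed no sign of pairing the libraries. Deviations from the group means correlated at -0.0877, 0.0754 and -0.0116 between libraries of the same number, and not every library correlated best with its own number. With 3 libraries per group these values cannot decide whether equal numbers shared a batch. The replicate block leaves fewer residual degrees of freedom than the main fit. With it 0 members were lower (CXCL8 log2 -1.01, limma adjusted p = 0.0547) and 0 genes of the other lists were higher. Over all genes tested, 17 were higher and 3 lower.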
